A study of Mus musculus with 3 samples.

Results

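Integrins are the receptors by which keratinocytes hold on to the basement membrane, and focal adhesions are the protein assemblies that couple the cytoplasmic tails of integrins to actin. A list of 39 such genes was examined in RNA sequencing counts from mouse keratinocytes: 6 integrin alpha subunits, 5 integrin beta subunits, the laminin receptor Bcam, the hemidesmosome linker Dst, and 26 focal adhesion adaptors, kinases and actin-binding proteins. The list was given by gene symbol, and all 39 were found among the 41214 gene identifiers of the tables. Of them, 38 reached 1 CPM (gene counts per library size, after scaling the libraries to each other) in some library and are among the 11865 genes compared, and Itga1 did not.

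The series compared 3 genotypes with 1 library each: wild type (wt), a knockout of ARPC4 (ARPC4 ko), and cells with a fusion of Nrf2 and the green fluorescent protein EGFP (Nrf2-EGFP). Branched actin networks are nucleated by the Arp2/3 complex, to which ARPC4 belongs, and Nrf2 is a transcription factor of the antioxidant response. Cells of all 3 genotypes were keratinocytes of the C57BL/6 strain, immortalised with SV40 and growing exponentially. The titles add the word Cre for the ARPC4 ko library and the word High for the Nrf2-EGFP library. The sources used here do not state if a line is a clone or what drives the fusion. The series title puts the design's question, which is how loss of Arp2/3 in epidermis relates to Nrf2 activity and a psoriasis-like state. With 1 library per genotype the spread between cultures was not measured, so no difference below has a replicate check, and p-values are left out. Each range in parentheses is a 95% counting interval for the ratio of 2 libraries. They cover counting error only and compare libraries, not genotypes.

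Each integrin is a pair of an alpha and a beta subunit. In basal keratinocytes the pair of alpha 6 and beta 4 sits in hemidesmosomes and is tied to keratin filaments through plectin and dystonin, whereas alpha 2, alpha 3 and alpha 5 pair with beta 1 and act in focal adhesions. Talin and kindlins bind the beta tail and activate the receptor, vinculin, alpha-actinin and filamin link it to actin, and paxillin, p130Cas, focal adhesion kinase and Src carry the signal. Arp2/3-driven protrusion and nascent adhesions form together at the leading edge of moving cells.

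The libraries held 22924294 to 25723959 gene counts, and 16780 to 16921 genes had a count. The wt library had 94.2 CPM of Arpc4, the Nrf2-EGFP library 98.4, and the library labelled ARPC4 ko 61.0, which is 1.54-fold below wt (1.44 to 1.65). Nfe2l2, the gene of Nrf2, was lowest in the library labelled Nrf2-EGFP, at 166.4 CPM, against 224.7 in wt (1.35-fold lower, 1.30 to 1.41) and 179.5 in ARPC4 ko. The sources used here do not state which part of Arpc4 was removed or if the fusion is counted to Nfe2l2, so these counts check the labels only in part. Of 12 keratinocyte markers 11 passed the filter, and the summed level of all 12 was 27291 CPM in wt against 16573 in ARPC4 ko, with 21410 in Nrf2-EGFP. Much of that sum was Krt5 (8997, 4260 and 6248 CPM in the same order) and Krt14 (7378, 3249 and 4932 CPM). Of the 11 markers, 4 were above wt in each of the other libraries, where 48.5% (ARPC4 ko) and 50.5% (Nrf2-EGFP) of all genes compared were. Epcam was the highest of the 4, with log2 folds of 0.62 and 0.69. In these bulk samples, fewer cells of a type and less RNA per cell cannot be told apart. Marker sums of other cell types were 1.60 to 4.36 CPM for 9 fibroblast genes, 5.63 to 7.20 CPM for 8 immune genes, 2.17 to 5.35 CPM for 7 melanocyte genes and 27.7 to 63.2 CPM for 7 endothelial genes. The endothelial sum was mostly Flt1 (24.7, 51.8 and 59.8 CPM). Col1a2, Col3a1, Pdgfrb, Thy1, Dcn, Lum, Cd3e, Cd207, Lyz2, Adgre1, Dct, Tyr, Tyrp1, Sox10 and Emcn had 0 counts in all 3 libraries, which allows up to 0.133, 0.123 and 0.121 CPM. The part of marker differences in the results below was not tested.

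Members were abundant genes as a group. Their median levels in wt, ARPC4 ko and Nrf2-EGFP were 163, 192 and 248 CPM, where all genes compared had medians of 34.6, 35.0 and 35.5 CPM. Together they took 1.35%, 1.45% and 1.57% of the gene counts. Levels can be set against each other between genes only per length, so CPM were also divided by the length of each gene's exons in kilobases. On that scale Itgb1 was the highest member in wt (338 CPM per kb), followed by Flna (224), Actn1 (185), Itga3 (159), Itgb4 (140) and Actn4 (123). The same 6 genes led in all 3 libraries and also when the longest transcript was taken as the length, in another order.

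**Figure D1:**
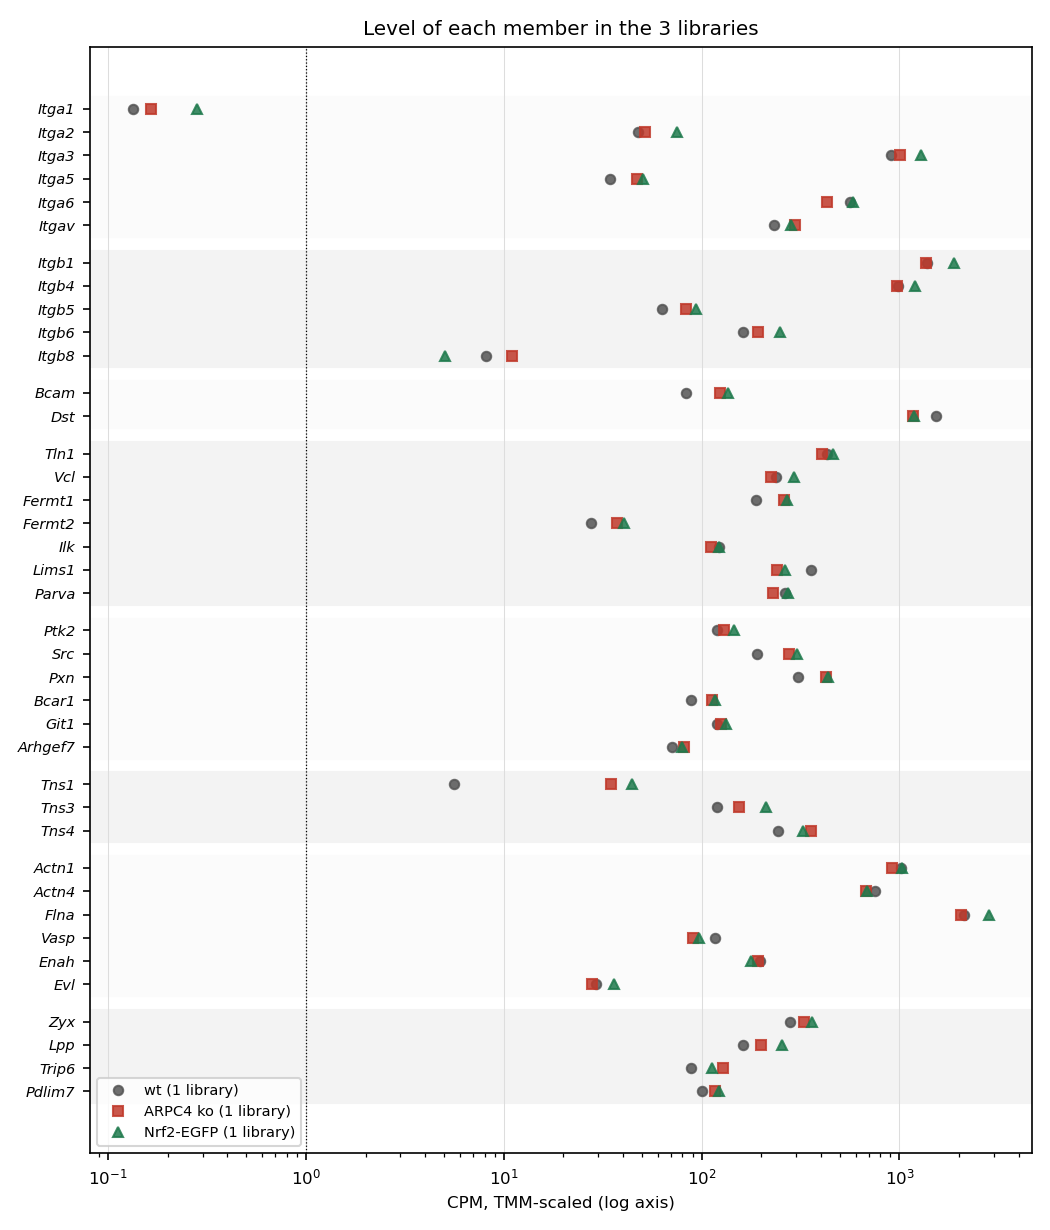
Scaled CPM (log axis) of the 39 members, grouped by role in shaded blocks. Each symbol is 1 library (circle wt, square ARPC4 ko, triangle Nrf2-EGFP), and the dotted line marks 1 CPM. For most members the 3 symbols lie close together, Tns1 has its wt symbol far to the left at 5.60 CPM, and Itga1 is below 1 CPM in every library.

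Among the alpha subunits, Itga3 and Itga6 were the highest per length, and Itga6 was the only 1 of the 5 above the filter that was lower than wt in the ARPC4 ko library. Itga3, the alpha chain of the main laminin receptor of focal adhesions, had 907 CPM in wt against 1007 in ARPC4 ko, with 1284 in Nrf2-EGFP. It was 1.11-fold higher than wt in ARPC4 ko (1.09 to 1.13) and 1.42-fold higher in Nrf2-EGFP (1.39 to 1.44). Itga6, which pairs with beta 4 in hemidesmosomes and with beta 1 elsewhere, had 560 CPM in wt against 430 in ARPC4 ko, with 582 in Nrf2-EGFP. That is 1.30-fold lower in ARPC4 ko (1.27 to 1.34), with the other 2 libraries close to each other. Itga2, a collagen-binding chain, had 47.6, 51.7 and 75.3 CPM in the same order and was 1.58-fold above wt in Nrf2-EGFP (1.47 to 1.71). Itga5, the chain of the classical fibronectin receptor, had 34.5 CPM in wt against 47.3 in ARPC4 ko, with 50.7 in Nrf2-EGFP, so wt was the low library. Itgav, which joins beta 5, beta 6 and beta 8 in receptors for RGD-bearing ligands such as vitronectin and latent TGF-beta, had 231 CPM in wt, 298 in ARPC4 ko (1.29-fold higher, 1.24 to 1.34) and 284 in Nrf2-EGFP. Itga1, another collagen-binding chain, was counted 3 times in wt, 4 times in ARPC4 ko and 7 times in Nrf2-EGFP, too few for a comparison.

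The main beta subunits, Itgb1 and Itgb4, lay close to wt in ARPC4 ko. In Nrf2-EGFP, 4 of 5 beta subunits were higher than wt, where 50.5% of all genes compared were. Itgb1, the common partner of most keratinocyte alpha chains, had 1380 CPM in wt against 1370 in ARPC4 ko, with 1891 in Nrf2-EGFP. Its ratio of ARPC4 ko to wt was 0.993 (0.978 to 1.01), and in Nrf2-EGFP it was 1.37-fold higher than in wt (1.35 to 1.39). Itgb4, whose long cytoplasmic tail binds plectin, had 980, 971 and 1200 CPM, with a ratio of 0.991 (0.973 to 1.01) in ARPC4 ko. Both ratios passed to the other side of 1 when libraries were scaled by total counts. Itgb5, a vitronectin receptor chain, had 63.1 CPM in wt against 83.5 in ARPC4 ko, with 93.8 in Nrf2-EGFP. For Itgb6, an epithelial chain that with alpha V activates latent TGF-beta, the values were 162, 192 and 248 CPM, 1.53-fold above wt in Nrf2-EGFP (1.47 to 1.59).

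Itgb8, which with alpha V also activates latent TGF-beta, was the beta chain below wt in Nrf2-EGFP. The gene (ENSMUSG00000025321, chromosome 12, 119158022 to 119238802 in mm10) had 8.09 CPM in wt against 10.9 in ARPC4 ko, with 5.07 in Nrf2-EGFP, from 182, 266 and 126 counts. It was thus highest in ARPC4 ko, 1.35-fold above wt (1.12 to 1.64), and lowest in Nrf2-EGFP, 1.60-fold below wt (1.26 to 2.02). Between ARPC4 ko and Nrf2-EGFP it differed 2.16-fold (1.74 to 2.69). These intervals are wide because the counts behind them are few.

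Per length, Itga3 led the alpha chains and Itgb1 the beta chains in all 3 libraries. For wt, ARPC4 ko and Nrf2-EGFP in turn, Itga3 made up 62.0%, 65.7% and 66.8% of the alpha subunit sum. The share of Itga6 was highest in wt, at 24.2%, against 17.7% and 19.2%. These shares hang on the length used: with the longest transcript, Itga6 held 35.7%, 27.2% and 29.3%, so the difference between libraries kept its direction while the level moved. In the beta sum, Itgb1 held 65.1%, 63.9% and 66.6% and Itgb4 26.9%, 26.3% and 24.6%. The summed level of the alpha chains was 256, 269 and 337 CPM per kb, and that of the beta chains was 519, 526 and 696. A chain's transcript level says nothing of how many pairs reach the cell surface.

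**Figure D2:**
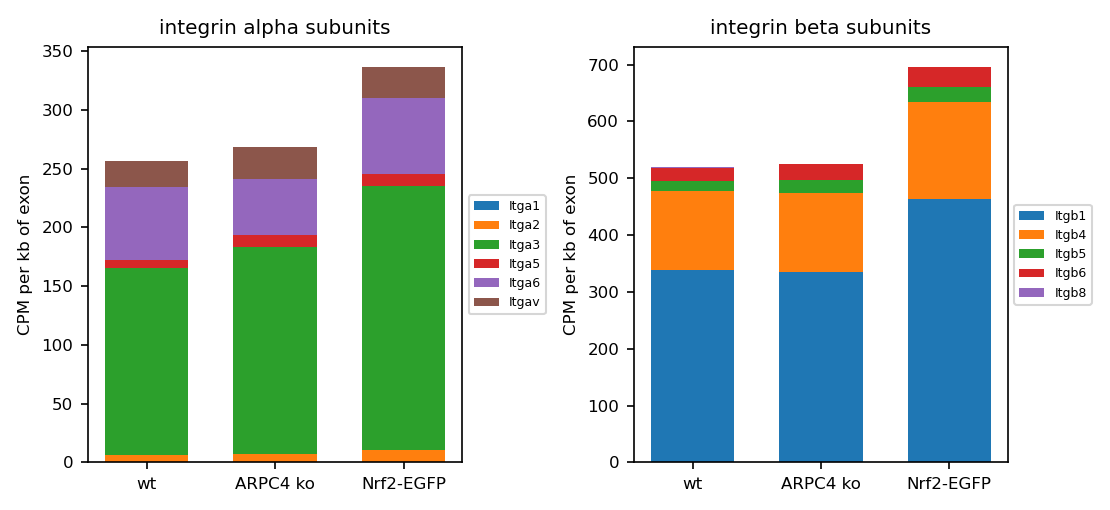
Stacked bars of CPM per kilobase of exon for the 6 alpha subunits (left) and the 5 beta subunits (right), 1 bar per library. Itga3 and Itga6 fill most of the left bars and Itgb1 and Itgb4 most of the right bars, and the Nrf2-EGFP bars are the tallest, at 337 and 696 CPM per kb.

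The hemidesmosome linker and the second laminin receptor differed from wt in opposite directions in both other libraries. Dst (dystonin, ENSMUSG00000026131, chromosome 1, 33908225 to 34308661) encodes BPAG1, whose epithelial isoform ties hemidesmosomes to keratin and whose other isoforms bind actin and microtubules. It had 1522 CPM in wt against 1175 in ARPC4 ko, with 1186 in Nrf2-EGFP, hence 1.29-fold lower (1.27 to 1.32) and 1.28-fold lower (1.26 to 1.30). Gene counts do not separate its isoforms. Bcam, a receptor for laminins with the alpha 5 chain, had 83.8 CPM in wt against 124 in ARPC4 ko, with 135 in Nrf2-EGFP, 1.48-fold higher (1.39 to 1.57) and 1.61-fold higher (1.52 to 1.71).

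Other hemidesmosome and basal attachment genes were read from a list of 10, of which 9 passed the filter. A gene passes the 2-fold rule where its log2 fold, taken on CPM + 0.5, is at least 1 in size and its interval excludes 1. Against wt, 2 of 9 were lower past this rule in ARPC4 ko, namely Krt14 (2.27-fold) and Krt5 (2.11-fold), where 2.06% of all genes compared were, and 0 in Nrf2-EGFP, where 2.05% were. With scaling by total counts Krt5 no longer passed (log2 fold -0.97). The median log2 fold of the 9 genes was -0.34 in ARPC4 ko, with 1 of 9 above 0, and 0.28 in Nrf2-EGFP, with 7 of 9 above 0. Over all genes compared the medians were -0.01 and 0.00, with 48.5% and 50.5% above 0. Of the 9, the single gene above 0 in ARPC4 ko was the hemidesmosomal collagen Col17a1, at a log2 fold of 0.03. Chosen after its values were seen, it had 2081 CPM in wt against 2123 in ARPC4 ko, with 2599 in Nrf2-EGFP.

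In the activation and linkage module, the 2 kindlins were higher than wt in both other libraries, and Lims1 was lower in both. Fermt1 (kindlin-1, the main kindlin of epidermis) had 188 CPM in wt, 262 in ARPC4 ko (1.39-fold higher, 1.34 to 1.45) and 269 in Nrf2-EGFP (1.43-fold higher, 1.38 to 1.49). Fermt2 (kindlin-2) had 27.5, 37.3 and 40.5 CPM. Lims1 (PINCH1, ENSMUSG00000019920, chromosome 10, 58323466 to 58424691), the LIM-domain partner of integrin-linked kinase, had 359 CPM in wt against 241 in ARPC4 ko, with 263 in Nrf2-EGFP. Its difference of 1.49-fold lower in ARPC4 ko (1.44 to 1.54) was the largest in the downward direction among the members in that comparison, just short of 1.5-fold. The other proteins of that complex lay nearer to wt, as Ilk had 123, 111 and 122 CPM, and Parva (alpha-parvin) had 263, 229 and 273 CPM. Of the exon bases of Ilk, 76.7% lie opposite exons of Taf10, which had 1599 to 1901 counts, and as the sources do not state the strand setting of the counting, the value of Ilk is uncertain.

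Talin and vinculin, the force-bearing link from beta tails to actin, lay near wt in ARPC4 ko. Tln1 had 432 CPM in wt against 406 in ARPC4 ko, with 463 in Nrf2-EGFP. Vcl had 237, 225 and 293 CPM, with 25.5% of its exon bases opposite exons of Ap3m1. The ratios of ARPC4 ko to wt were 0.940 (0.914 to 0.967) for Tln1 and 0.947 (0.911 to 0.983) for Vcl, and both signs turned with scaling by total counts. In Nrf2-EGFP, Vcl was 1.23-fold higher than in wt (1.19 to 1.28).

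All 6 kinases, scaffolds and exchange factors had log2 folds above 0 in both comparisons with wt, as did 37.9% of all genes compared. Src, the tyrosine kinase that phosphorylates focal adhesion kinase and p130Cas, had 190 CPM in wt, 278 in ARPC4 ko (1.46-fold higher, 1.41 to 1.52) and 303 in Nrf2-EGFP (1.60-fold higher, 1.54 to 1.66). Pxn (paxillin, the scaffold of early adhesions) had 308, 427 and 435 CPM, about 1.4-fold above wt in both. Bcar1 (p130Cas) had 88.1 CPM in wt against 113 in ARPC4 ko, with 116 in Nrf2-EGFP. Ptk2, the gene of focal adhesion kinase, was nearer to wt with 120, 130 and 146 CPM. Git1, which brings the exchange factor beta-PIX to paxillin, had 120, 125 and 133 CPM, and in ARPC4 ko its interval included 1. Arhgef7, which encodes beta-PIX, had 70.5, 81.1 and 79.8 CPM.

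Tensins bind beta integrin tails and, except for tensin 4, actin as well, and Tns1 had the largest difference of the list. Tns1 (ENSMUSG00000055322, chromosome 1, 73910231 to 74124449) had 5.60 CPM in wt against 34.7 in ARPC4 ko, with 44.3 in Nrf2-EGFP, from 126, 843 and 1101 counts. The wt library was the low sample, and the ratios to it were 6.19 (5.13 to 7.52) for ARPC4 ko and 7.91 (6.57 to 9.59) for Nrf2-EGFP. Tns3 (ENSMUSG00000020422, chromosome 11, 8431652 to 8664535) had 120 CPM in wt against 155 in ARPC4 ko, with 212 in Nrf2-EGFP, 1.78-fold above wt in the last (1.70 to 1.86). Tns4 (Cten), the tensin that lacks the actin-binding region, had 244, 356 and 325 CPM, with ARPC4 ko the highest. Between genes and per length, Tns1 stayed the lowest of the 3 tensins in every library.

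Actin crosslinkers and Ena/VASP proteins had log2 folds from -0.37 to -0.04 in ARPC4 ko against wt. All 6 were below 0, where 48.5% of all genes compared were above 0. With scaling by total counts the log2 folds of Flna, Enah and Evl turned sign. Vasp, which elongates actin filaments at adhesions, had 117 CPM in wt, 90.7 in ARPC4 ko (1.29-fold lower, 1.22 to 1.37) and 97.3 in Nrf2-EGFP (log2 fold -0.27). Its relatives Enah (Mena) and Evl had 197, 192 and 178 CPM and 29.4, 28.1 and 36.1 CPM, and their intervals in ARPC4 ko included 1. Of the alpha-actinins, which crosslink stress fibres, Actn1 had 1021, 915 and 1032 CPM and Actn4 754, 674 and 686. Flna (filamin A), the crosslinker that also competes with talin for beta tails, had 2110 CPM in wt against 2056 in ARPC4 ko, with 2842 in Nrf2-EGFP. It was 1.35-fold above wt in Nrf2-EGFP (1.33 to 1.36). Scaling by total counts also turned the sign of Actn1 in Nrf2-EGFP.

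Zyx, Lpp, Trip6 and Pdlim7, LIM proteins of adhesions and stress fibres, were higher than wt in both other libraries, as were 37.9% of all genes compared. Zyx (zyxin) had 278 CPM in wt against 327 in ARPC4 ko, with 362 in Nrf2-EGFP. Lpp had 163, 200 and 256 CPM, and in Nrf2-EGFP it was 1.58-fold higher than in wt (1.51 to 1.64). Trip6 had 88.9, 128 and 113 CPM, so here ARPC4 ko was the highest (1.44-fold above wt, 1.36 to 1.53). Pdlim7 (enigma), a PDZ and LIM protein of stress fibres, had 101, 117 and 122 CPM.

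**Figure D3:**
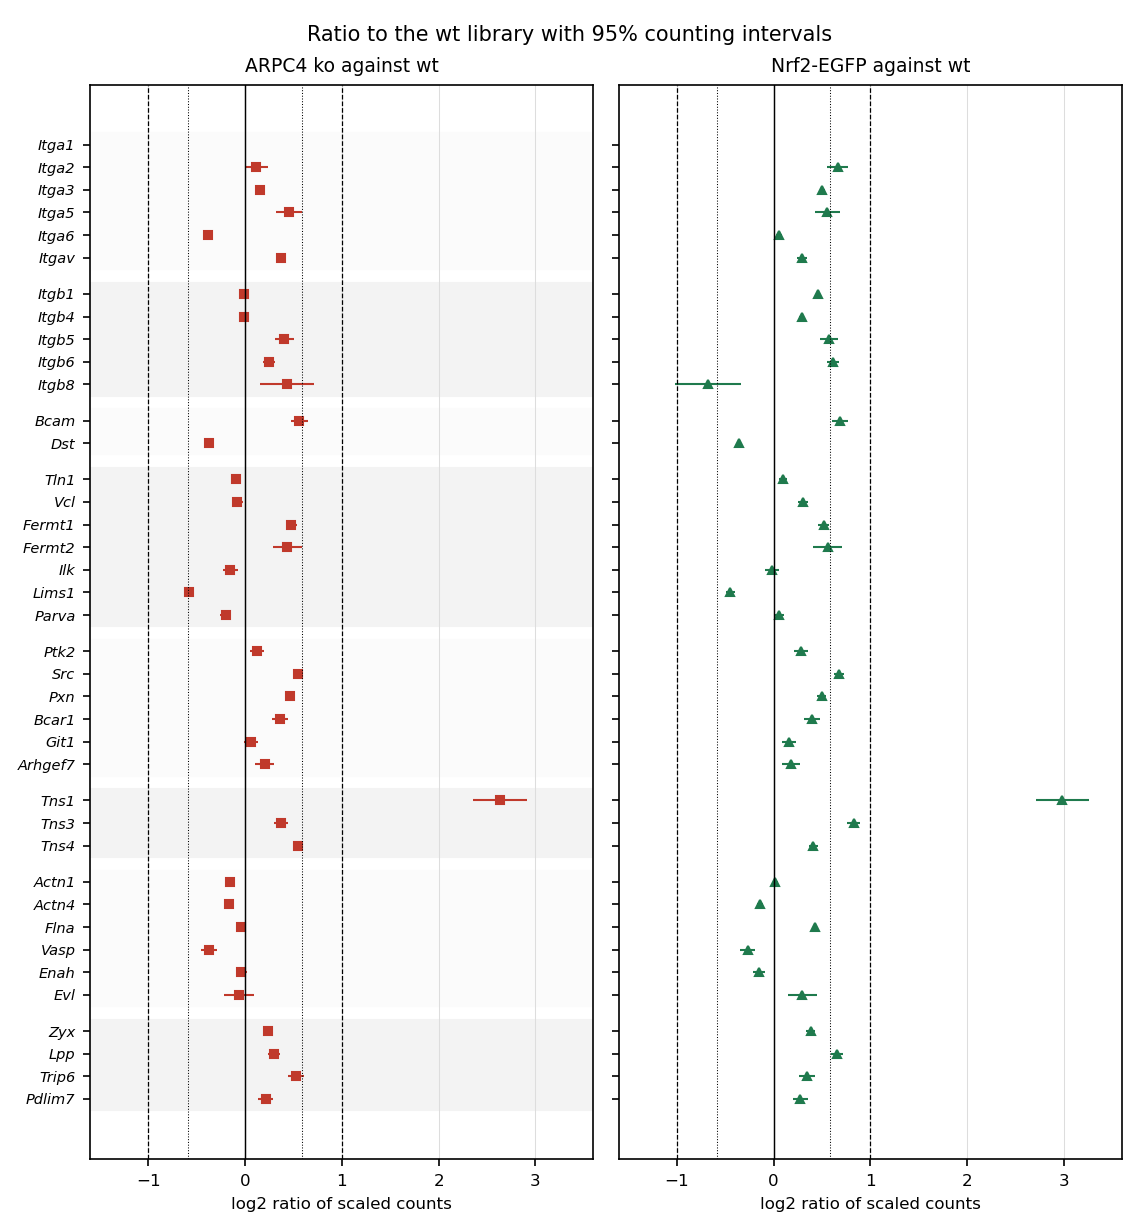
Log2 ratio of scaled counts to the wt library for the 38 members past the filter, ARPC4 ko on the left and Nrf2-EGFP on the right. Bars are 95% counting intervals of 1 library pair, not spread between cultures, dashed lines mark 2-fold and dotted lines 1.5-fold. Apart from Tns1, every point lies within 2-fold of wt, and more points lie to the right of 0 in Nrf2-EGFP (31 of 38) than in ARPC4 ko (23 of 38).

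Over the whole list, few members passed the size rule against wt, and shifts under 1.5-fold made up the bulk of the differences. In ARPC4 ko against wt, 1 of 38 members was higher past the 2-fold rule (Tns1), where 4.70% of all genes compared were, and 0 were lower, where 2.06% were. At 1.5-fold, Tns1 was again the only member higher (10.8% of all genes) and 0 were lower (6.24% of all genes). With scaling by total counts 5 members were higher at 1.5-fold, as Bcam, Src, Tns4 and Trip6 joined Tns1. The share of all genes at 1.5-fold was not computed under it, and at 2-fold 683 of 11872 genes were higher in place of 558 of 11865. With the TMM factors, the other 37 members lay within 1.5-fold of wt, as did 82.9% of all genes. Members had higher levels than all genes compared (medians of 163 and 34.6 CPM in wt), and shares over genes of like level were not computed. Log2 folds were above 0 for 23 of 38 members against 48.5% of all genes, and the median was 0.18 against -0.01. Under scaling by total counts 30 of 38 members were above 0 against 60.3% of all genes, with medians of 0.28 and 0.09. Under it 7 members turned sign: Itgb1, Itgb4, Tln1, Vcl, Flna, Enah and Evl.

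Against the same wt library, Nrf2-EGFP had 1 of 38 members higher past the 2-fold rule, again Tns1, where 3.57% of all genes were, and 0 lower, where 2.05% were. At 1.5-fold, 7 of 38 members were higher: Itga2, Itgb6, Bcam, Src, Tns1, Tns3 and Lpp. The share of all genes was 8.61%. Itgb8 was the single member lower at 1.5-fold, where 5.72% of all genes were, and with a pseudocount of 2 CPM it no longer passed. Log2 folds were above 0 for 31 of 38 members and 50.5% of all genes, with medians of 0.32 and 0.00. The quartiles were 0.07 and 0.54 for members and -0.22 and 0.23 for all genes. Both comparisons share the wt library, so a low or high value in it moves both.

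In the direct comparison of ARPC4 ko with Nrf2-EGFP, the choice of scaling moved the members and all genes together. Itgb8 was higher in ARPC4 ko past the 2-fold rule (2.01% of all genes were) and also the only member higher at 1.5-fold (5.85%), and 0 members were lower at either size (0.961% and 3.38% of all genes). Itgb8 did not pass the 2-fold rule with a pseudocount of 2 CPM. Log2 folds were above 0 for 6 of 38 members against 47.1% of all genes, with medians of -0.13 and -0.02. With scaling by total counts 19 of 38 members were above 0 against 67.7% of all genes, with medians of -0.0026 and 0.11. Members with the largest differences in favour of Nrf2-EGFP were Itga2 (1.46-fold, 1.36 to 1.57), Flna (1.38-fold, 1.37 to 1.40), Itgb1 (1.38-fold, 1.36 to 1.40) and Tns3 (1.37-fold, 1.32 to 1.43), and these kept their sign. Nrf2-EGFP was the highest of the 3 libraries for 27 of 38 members and for 30.6% of all genes, and with scaling by total counts for 17 of 38 and 19.4%.

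**Figure D4:**
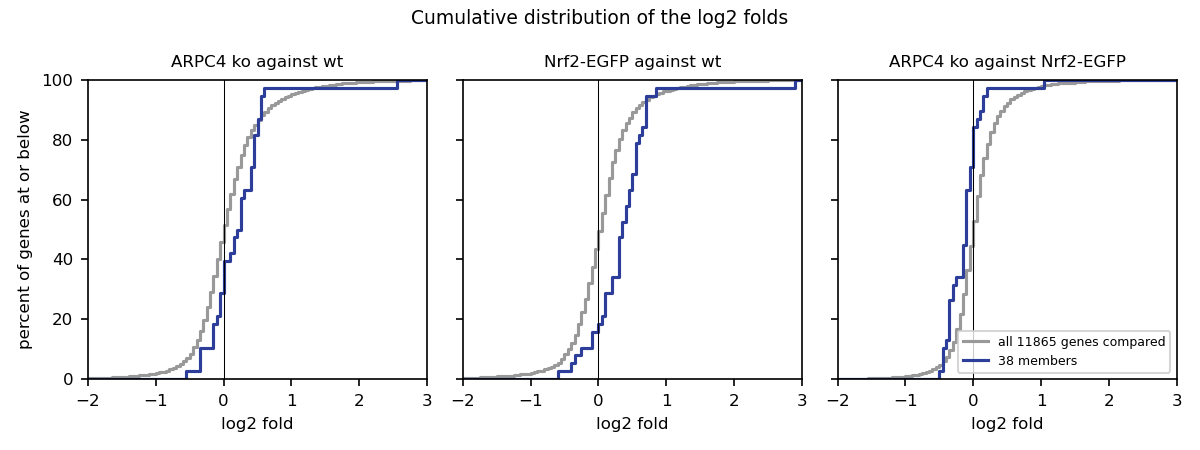
Percent of genes at or below each log2 fold, for the 38 members (blue) and all 11865 genes compared (grey), in the 3 pairs of libraries. The blue curve is to the right of the grey one over most of its length against wt, with medians of 0.18 and 0.32 in ARPC4 ko and Nrf2-EGFP, and to the left in the third panel, with a median of -0.13.

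Ligands of these integrins had larger median log2 folds than the members, a difference that was not tested. Of 25 listed, 19 passed the filter, 4 were higher than wt past the 2-fold rule in ARPC4 ko and 7 in Nrf2-EGFP, and 0 were lower in either. Over all genes 4.70% and 3.57% were higher past the rule and 2.06% and 2.05% lower. With scaling by total counts 6 ligands were higher in ARPC4 ko, where 683 of all 11872 genes were. Their median log2 folds were 0.71 and 0.70. In both libraries the higher ones included Fbn1 (fibrillin 1), with 7.34 CPM in wt, 34.4 in ARPC4 ko but 20.8 in Nrf2-EGFP, and Ltbp1, the latent TGF-beta binding protein, with 85.8, 237 and 288 CPM. Tnc (tenascin C) had 241, 393 and 848 CPM and Ccn2, a matricellular protein, 20.1, 37.4 and 79.6 CPM, and they passed in Nrf2-EGFP. Fn1 (fibronectin), chosen after its values were seen, had 527, 836 and 1537 CPM.

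Integrin chains outside the list were scarce. Of 15 listed, 4 passed the filter, and the summed level of all 15 was 11.7 CPM in wt against 22.2 in ARPC4 ko, with 21.3 in Nrf2-EGFP. Itga7, a laminin-binding chain best known from muscle, had 5.87, 13.3 and 14.3 CPM and was higher in both, 2.26-fold (1.84 to 2.79) and 2.44-fold (1.99 to 3.00). With a pseudocount of 2 CPM it no longer passed the 2-fold rule in ARPC4 ko (log2 fold 0.96). Itga8, named after its values were seen, passed as higher in ARPC4 ko, with 11 counts in wt against 52 in ARPC4 ko and 6 in Nrf2-EGFP, but not with a pseudocount of 2 CPM (0.73). Over all genes 4.70% were higher past the rule in ARPC4 ko and 3.57% in Nrf2-EGFP. Itgb3, Itgam, Itgax and Itgae had 0 counts in wt.

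Among 23 paralogs of the members, 13 passed the filter, with medians of 0.26 in ARPC4 ko and 0.14 in Nrf2-EGFP. Flnc (filamin C) had 11.8 CPM in wt against 29.9 in ARPC4 ko, with 26.2 in Nrf2-EGFP, and was higher in both, 2.53-fold (2.20 to 2.92) and 2.21-fold (1.91 to 2.56). Nedd9, a relative of p130Cas, had 166, 336 and 243 CPM and passed in ARPC4 ko at 2.03-fold. That makes 2 of 13 higher in ARPC4 ko (4.70% of all genes) and 1 of 13 in Nrf2-EGFP (3.57%), and 0 were lower (2.06% and 2.05%). Of 55 other focal adhesion components, 51 passed the filter, 1 was higher past the rule in each comparison (4.70% and 3.57% of all genes) and 0 were lower (2.06% and 2.05%), and the medians were 0.05 and 0.01. The higher one was Sorbs3 (vinexin, a vinculin-binding adaptor, named after its values were seen), with 34 counts in wt against 124 in ARPC4 ko and 110 in Nrf2-EGFP. With a pseudocount of 2 CPM its call in Nrf2-EGFP was lost (0.87), and in ARPC4 ko scaling by total counts raised the number to 2. Over all genes that scaling raised the number from 558 to 683.

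**Figure D5:**
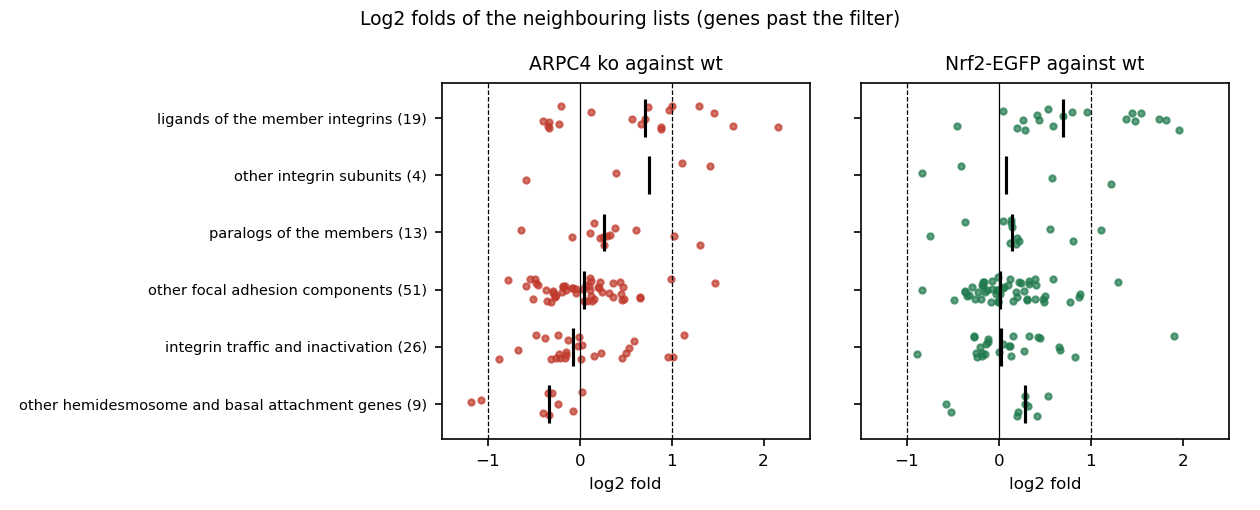
Log2 folds against wt of the genes past the filter in 6 lists next to the members, with the number of genes in parentheses. Each point is a gene, black bars are medians and dashed lines mark 2-fold. Ligands reach furthest to the right, with medians of 0.71 and 0.70, while the 51 other focal adhesion components centre on 0.05 and 0.01.

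Promoter sequences are shown for Tns1, the member with the largest difference, and for the 3 members higher at 1.5-fold in Nrf2-EGFP whose promoters hold the core letters of the antioxidant response element, the site bound by Nrf2. They are RefSeq sequences of GRCm38.p6, written 5′ to 3′ on the gene's strand and ending at a RefSeq transcript start or, for Bcam and Itgb6, at the last base before an annotated exon. The Bcam window lies within the gene's annotated span. Capitals mark the motif letters found on either strand.
Tns1, chr1:74124549-74124798, minus strand, capitals GGGCGG: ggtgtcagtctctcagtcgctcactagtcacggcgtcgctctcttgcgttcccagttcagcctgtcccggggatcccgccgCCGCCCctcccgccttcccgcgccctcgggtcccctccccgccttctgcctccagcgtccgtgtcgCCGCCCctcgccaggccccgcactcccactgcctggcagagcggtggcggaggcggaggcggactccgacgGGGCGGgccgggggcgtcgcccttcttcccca
Bcam, chr7:19770548-19770782, minus strand, capitals TGACNNNGC: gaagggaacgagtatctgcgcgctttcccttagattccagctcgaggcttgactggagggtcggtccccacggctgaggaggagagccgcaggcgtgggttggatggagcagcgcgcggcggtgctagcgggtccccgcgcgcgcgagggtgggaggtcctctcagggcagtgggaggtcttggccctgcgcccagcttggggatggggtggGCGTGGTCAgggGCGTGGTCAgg
Itgb6, chr2:60722644-60722853, minus strand, capitals TGACNNNGC: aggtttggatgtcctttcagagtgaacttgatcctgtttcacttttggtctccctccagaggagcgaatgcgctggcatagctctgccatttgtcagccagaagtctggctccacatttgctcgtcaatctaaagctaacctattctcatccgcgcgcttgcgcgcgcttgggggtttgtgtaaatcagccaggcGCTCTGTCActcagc
Lpp, chr16:24721605-24721854, plus strand, start of a shorter transcript inside the gene, capitals GGAATG and then TGACNNNGC: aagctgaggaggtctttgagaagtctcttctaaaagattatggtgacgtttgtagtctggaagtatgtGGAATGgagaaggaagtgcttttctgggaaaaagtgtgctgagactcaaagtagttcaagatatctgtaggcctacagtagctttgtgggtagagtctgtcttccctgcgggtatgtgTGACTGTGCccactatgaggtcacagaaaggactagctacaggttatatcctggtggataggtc

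The Tns1 window is rich in G and C (74.4%) and holds GGGCGG, the GC box letters, 3 times. In the Bcam window the letters TGACNNNGC stand as 2 copies on the opposite strand just before the start. The RefSeq table of windows, read over the 250 bases before each start, matched 33 members (45 windows); unmatched were Itga6, Itgb4, Parva, Ptk2, Pxn and Tns4. The letters TGACNNNGC were in 13.3% of the member windows and in 10.2% of all 32851 windows of that length. Those of AP-1 (TGANTCA, which can overlap the former) were in 4.44% and 6.75%, of TEAD (GGAATG) in 17.8% and 12.6%, of the SRF CArG box in 6.67% (Fermt2, Itgb6 and Vcl) and 1.47%, and of the GC box (GGGCGG) in 62.2% and 32.7%. The CArG match of Itgb6 lies in another window of that gene, in bases of an annotated exon, and not in the sequence shown. Both strands were searched. The 32851 windows were not limited to the genes compared here, and shares over those genes alone were not computed. Of the 7 members higher at 1.5-fold in Nrf2-EGFP, TGACNNNGC was in a window of 3, and of the other 26 members with a window in 3 (Fermt2, Itgb1 and Lims1). For the same 7 and 26 members, GC box letters were in 3 and 21, and TEAD letters in 1 and 6. The CArG box was in 1 and 2, and AP-1 letters in 0 and 2. These splits were not tested. A match is a run of letters, not a bound site, and which start site the cells used is not read from gene counts.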

How the data were processed

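Gene counts of 3 mouse keratinocyte libraries, 1 per genotype, were analysed. Per the labels' protocols, TRIzol-extracted RNA went into a stranded TruSeq mRNA preparation, read single end over 65 bp. The submitters' processing notes name HTSeq, Bowtie 1.1, TopHat2 2.1.0 and the mm10 build, and the settings were not stated there. The authors deposited raw counts per gene. Rows that name no gene, which held 8.22% to 9.08% of the counts of each library, were left out.

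TMM factors (edgeR 4.0.16, R 4.3.3) of 0.981 for wt, 1.06 for ARPC4 ko and 0.966 for Nrf2-EGFP scaled the libraries. A gene was compared where any library reached 1 CPM. The log2 fold is that of CPM + 0.5, while ratios have no pseudocount and exact 95% Clopper-Pearson intervals, conditional on the gene's sum. No test of genotypes was made. A gene passed a size rule at 2-fold or 1.5-fold where its log2 fold reached that size and the interval excluded 1. Symbols, coordinates and exon lengths came from GENCODE M21 (GRCm38, the mm10 build), and 40254 identifiers had a symbol. All members are named, and of each neighbouring list up to 4 genes past the 2-fold rule against wt with at least 10 CPM in a library. The members and lists were chosen with earlier results of these data known. The steps were tested on simulated data. Alternatives covered scaling, pseudocount, filter and gene length.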

Additional observations from a re-analysis of the deposited data

How the results depend on the processing

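The wt comparisons were steady under median-of-ratios scaling, a pseudocount of 0.1 CPM, no filter and a filter of 10 CPM: under these 4 settings the counts of members past a rule stayed within 1.5 times the reported ones, and the medians lay between 0.15 and 0.18 for ARPC4 ko and between 0.30 and 0.33 for Nrf2-EGFP. With scaling by total gene counts, 5 members in place of 1 were higher at 1.5-fold in ARPC4 ko against wt (Bcam, Src, Tns4 and Trip6 joined Tns1). The share of all genes at 1.5-fold under it was not computed. The median of the members was 0.28 in place of 0.18, where that of all genes was 0.09 in place of -0.01. Between ARPC4 ko and Nrf2-EGFP the median of the members was -0.0026 in place of -0.13, where that of all genes was 0.11 in place of -0.02. With a pseudocount of 2 CPM, Itgb8 no longer passed, which left 0 members lower at 1.5-fold in Nrf2-EGFP against wt and 0 higher at 2-fold between ARPC4 ko and Nrf2-EGFP. Of 147 log2 folds of single named genes, 85 moved beyond their counting interval with scaling by total counts and 3 with a pseudocount of 2 CPM, and no member past a rule turned sign. The cause was not tested. Of the shares of single subunits in the integrin pool, 27 moved and 6 did not with the length of the longest transcript. Over all genes, the number higher at 2-fold ran from 253 to 688 in ARPC4 ko against wt (558 as reported), from 242 to 506 in Nrf2-EGFP against wt (423) and from 52 to 349 between them (239). The numbers lower ran from 121 to 299 (244), 92 to 332 (243) and 62 to 155 (114). Each lowest number came with the filter of 10 CPM, which left 9318 genes in place of 11865. Each highest came with a pseudocount of 0.1 CPM. Applied after the data were seen to the neighbouring lists, a filter of 10 CPM removed Itga8, Sorbs3, Dab2 and Rab4a, and scaling by total counts took 3 in place of 2 trafficking genes past the 2-fold rule in ARPC4 ko. Over all genes that scaling took 683 in place of 558 past it. No paired analysis was possible because each genotype has 1 library. Depth limits Itga1, with 3 to 7 counts, and widens the intervals of Itgb8, with 126 to 266 counts.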

Other observations

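Genes that move integrins through endosomes or hold them inactive were listed as a further group of 26, all of which passed the filter. Their median log2 fold against wt was -0.07 in ARPC4 ko, with 2 higher past the 2-fold rule and 0 lower, and 0.02 in Nrf2-EGFP, with 1 higher and 0 lower. Over all genes 4.70% and 3.57% were higher past the rule and 2.06% and 2.05% lower. With a pseudocount of 2 CPM 0 of the 26 passed in ARPC4 ko, where Dab2 had a log2 fold of 0.79 and Rab4a of 0.67. All genes named here were chosen after their values were seen. Dab2, a clathrin adaptor for integrins, was the gene higher in both, with 42 counts in wt against 114 in ARPC4 ko (2.51-fold, 1.75 to 3.67) and 208 in Nrf2-EGFP (4.48-fold, 3.20 to 6.40). Rab4a, a small GTPase of rapid recycling, passed in ARPC4 ko, with 36 counts in wt and 91 there. Rab25, an epithelial GTPase of the recycling endosome that binds beta 1 integrin, had 195 CPM in wt against 106 in ARPC4 ko, with 105 in Nrf2-EGFP, so wt was the high library and the other 2 lay close together. It was lower past the 1.5-fold rule in both, 1.85-fold (1.76 to 1.94) in ARPC4 ko and 1.86-fold (1.77 to 1.95) in Nrf2-EGFP. At that rule, 4 of the 26 were higher and 2 lower in ARPC4 ko (10.8% and 6.24% of all genes). In Nrf2-EGFP 4 were higher and 1 was lower (8.61% and 5.72% of all genes). Slc3a2 (CD98 heavy chain), which binds beta tails and carries amino acid transporters, had 369, 232 and 319 CPM.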
